A study of Mus musculus with 20 samples.

Results

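At 9588 distal CTCF sites of mouse embryonic stem cells (mESCs) the cohesin subunit RAD21 was called before and not after degradation of CTCF, and these sites are described here. They are 9588 of the 20371 RAD21 peaks called in WT cells, out of 136043 peaks in all 12 lists of the series. They were chosen by a rule on called peaks: a RAD21 peak of WT that overlapped no RAD21 peak of ΔCTCF, met a WT peak of CTCF, and had its summit more than 1 kb from every transcript start of GENCODE vM21 basic on build mm10. They are called lost sites below. The loss itself, the presence of CTCF in WT and the distance from promoters therefore come from the rule and are no findings. The 6156 RAD21 peaks of WT that met the same rule, except that they did overlap a RAD21 peak of ΔCTCF, served as the nearest comparison and are called retained sites.

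Chromatin immunoprecipitation with sequencing (ChIP-seq) was done for RAD21, CTCF and MAZ in E14 mESCs, an established line, grown with LIF and 2 kinase inhibitors (2i). All cells carried CTCF fused to an auxin-inducible degron, so the WT group is the degron line without auxin. ΔCTCF is that line with auxin, for 2 days by the titles of the libraries used. ΔMAZ is a Maz knockout made in the degron line, labelled B2, without auxin, and ΔCTCF/ΔMAZ is the same knockout with auxin. Each antibody in each of these 4 groups had 1 peak list, so no value has a replicate check and the knockout is represented by a single clone. The intervals below are 95% intervals that cover counting error over sites only.

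CTCF is a zinc finger protein that binds a long, directional DNA motif. In the loop extrusion model, the ring-shaped cohesin complex, of which RAD21 is a subunit, reels in chromatin until CTCF stops it, and the orientation of the motif sets the side on which cohesin is held. Cohesin sites are therefore usually CTCF sites, many of them in introns and between genes. MAZ is a zinc finger protein that binds G-rich sequence, mostly near promoters.

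The libraries differed in depth and in the number of peaks. The number of peaks fell from 26394 in CTCF WT to 2381 in CTCF ΔCTCF and 2570 in CTCF ΔCTCF/ΔMAZ, and each knockout MAZ list held 33 peaks against 6265 in MAZ WT. Beside the 20371 RAD21 peaks of WT, RAD21 had 17912 peaks after auxin, 20872 in the knockout and 6400 in the knockout after auxin. The read depth worked out from the lists was 2.18 times that of RAD21 WT in RAD21 ΔCTCF, 1.29 times in RAD21 ΔMAZ and 0.931 times in RAD21 ΔCTCF/ΔMAZ. RAD21 ΔCTCF, the list without the lost sites, came from a deeper library than RAD21 WT. The CTCF libraries were shallower, at 0.443 times for WT and 0.280 times after auxin, and in the knockout at 0.399 times without auxin and 0.508 times with it. Fold enrichment is the read pileup at the summit over the local background. Its median over all peaks of the list was lower in RAD21 ΔCTCF, the deeper library, at 4.85 against 10.0 in RAD21 WT. At retained sites the medians in these lists were 7.15 and 18.05.

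The sites are first shown by their sequence around the CTCF motif. The first pair below comes from introns and the second from between genes, all among the 5 strongest lost sites of their kind by RAD21 fold enrichment in WT. The last 3 show the few exceptions among lost sites, with residual CTCF, residual RAD21 and MAZ. Each is 60 bases of mm10 on the strand of the motif, 5′ to 3′, and the capitals mark the best match of 20 bases to a CTCF matrix built from other peaks.

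Nek10 intron: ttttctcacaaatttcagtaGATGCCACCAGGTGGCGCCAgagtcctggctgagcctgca
Gm14546 intron: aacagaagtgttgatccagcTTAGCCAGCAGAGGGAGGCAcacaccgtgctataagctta
Between genes near Slc35f6: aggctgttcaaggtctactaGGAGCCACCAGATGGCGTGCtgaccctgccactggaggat
Between genes near Gm27019: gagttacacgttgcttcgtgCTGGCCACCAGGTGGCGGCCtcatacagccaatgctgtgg
Gdf15 coding exon: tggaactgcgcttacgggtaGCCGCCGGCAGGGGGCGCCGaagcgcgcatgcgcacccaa
1500009C09Rik coding exon: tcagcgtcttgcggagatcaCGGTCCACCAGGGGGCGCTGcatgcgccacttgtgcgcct
Between genes near Gm45738: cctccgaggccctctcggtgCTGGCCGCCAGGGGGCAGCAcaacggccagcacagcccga

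In mm10 these lie at chr14:14863885-14863944 (plus strand), chr6:34292992-34293051 (plus), chr5:30638209-30638268 (minus), chr6:31075906-31075965 (plus), chr8:70629872-70629931 (minus), chr15:82259685-82259744 (minus) and chr6:48016378-48016437 (plus). Of all 10 named sites with a motif, the RAD21 summit lay on the 3′ side of the match in 8, by 14 to 49 bases from its centre. Its position was on the 5′ side at Gdf15, at -45 bases, and at the site between genes nearest to Pdcd1, not printed here, at -52 bases.

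Most lost sites held such a motif. Within the 100 bases around the RAD21 summit, 55.4% of lost sites (5308 of 9588, interval 54.4 to 56.4) had a match to the matrix, against 0.459% of windows of the same width 1 kb beside the lost summits. The share over all RAD21 peaks of WT was much the same, at 54.9% (54.2 to 55.6). Around the CTCF summit, in a window of 200 bases, 68.4% of lost sites had one (67.5 to 69.3). Retained sites held the motif more often, at 71.0% of RAD21 windows (69.9 to 72.1). At like RAD21 strength lost minus retained sites differed by -10.1 percentage points (-11.95 to -8.34), as weighted over 5 equal groups of RAD21 fold enrichment in WT by the Mantel-Haenszel method. The share with a motif rose with strength among lost sites, from 46.3% in the weakest group to 62.3% in the strongest. Gene body and intergenic lost sites were close, at 56.4% and 54.0%, a difference of 2.33 points (0.321 to 4.33).

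At lost sites cohesin lay on the 3′ side of CTCF's motif. The RAD21 summit was a median of 21 bases from the motif centre on the 3′ side, with the middle 50% of sites between 8 and 34 bases, over the 6559 lost sites with a motif near the CTCF summit. It was on the 3′ side in 83.1% of them (82.2 to 84.0). The CTCF summit had its median on the other side, at -8 bases. Retained sites had the same medians with less spread: 89.5% of their RAD21 summits were on the 3′ side (88.6 to 90.4). The offset was found again in the ΔMAZ library. There, the 5550 lost sites with such a motif and a RAD21 call had a median of 21 bases and 85.8% on the 3′ side. Within genes the motif showed no strand preference beyond the interval: 48.4% of 3315 lost sites in the body of a single protein-coding gene had it on the strand of the gene (46.7 to 50.1), and 49.0% of 1732 retained sites did (46.7 to 51.4).

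**Figure D1:**
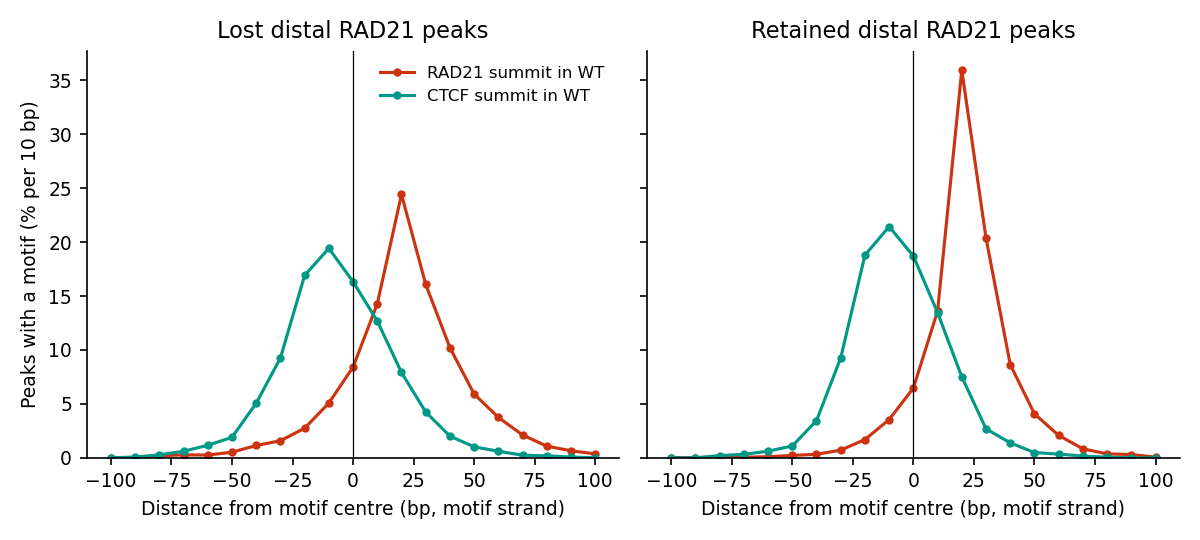
Share of sites (% per 10 bp) by the distance of the RAD21 and CTCF summits of WT from the centre of the CTCF motif, in bp along the motif strand, for lost (left) and retained (right) distal sites with a motif. RAD21 summits peak at 20 bp on the 3′ side in both sets, with 24.4% of lost sites in that bin, and CTCF summits peak at -10 bp.

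By position, 5412 lost sites (56.4%, interval 55.5 to 57.4) had their summit in a gene body, meaning anywhere in the span of an annotated gene, and 4176 lay between genes. Introns held 4926 of them (51.4%), coding exons 172 (1.79%), UTRs 234 (2.44%) and exons of noncoding transcripts 80 (0.834%). The median distance to the nearest transcript start was 12960 bases in gene bodies and 12700 between genes. Neighbouring lost sites were a median of 110666 bases apart, and 462 neighbouring pairs lay within 5 kb of each other. Lost sites up to 100 bases past the distance limit of 1000 bases numbered 76, with a median RAD21 fold enrichment of 7.40. Peaks up to 100 bases short of it, which missed the rule for that reason alone, numbered 73 with a median of 8.43. Only 121 lost sites (1.26%) had a RAD21 peak of ΔCTCF within 500 bases of their edge, and over all lost sites the median distance to the nearest summit of that list was 31682 bases.

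Gene bodies held a larger share of lost than of retained sites. Of the retained sites 42.9% were in gene bodies (41.6 to 44.1), 13.6 points below the lost sites (12.003 to 15.2), and 12.8 points at like strength (10.9 to 14.7). Seen the other way, 67.2% of 8050 distal RAD21 peaks with CTCF in gene bodies were lost (66.2 to 68.2), against 54.3% of 7694 between genes (53.2 to 55.4). The direction was the same in each of 5 strength groups: from weakest to strongest, 93.3%, 88.5%, 78.5%, 58.2% and 25.1% were lost in gene bodies, and 91.0%, 82.6%, 67.8%, 46.5% and 15.5% between genes. In the weakest group the interval of the difference held 0 (-0.0180 to 4.74 points), and in the other 4 it did not. Weighted over the groups, the difference was 8.70 points (7.41 to 9.99), and over 25 groups of joint RAD21 and CTCF fold enrichment it was 9.39 points (8.18 to 10.6). Sites in the same gene are not independent of each other, so these intervals are too narrow by an unknown amount.

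The Maz knockout lists gave the same comparison from other libraries, at sites that were largely the same. Of distal RAD21 peaks of ΔMAZ that overlapped a CTCF peak of ΔMAZ, 82.0% of 7856 in gene bodies had no partner in ΔCTCF/ΔMAZ (81.2 to 82.9), against 71.8% of 7656 between genes (70.7 to 72.8). The difference weighted over strength groups was 5.80 points (4.70 to 6.91) and was largest in the strongest group, where 44.8% were lost in gene bodies and 32.2% between genes. Among the peaks of that list absent from RAD21 WT, 98.9% of 831 in gene bodies and 97.4% of 660 between genes were lost, and the weighted interval held 0 (1.21 points, -0.0691 to 2.498). Nearly all of those peaks were lost in either place.

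**Figure D2:**
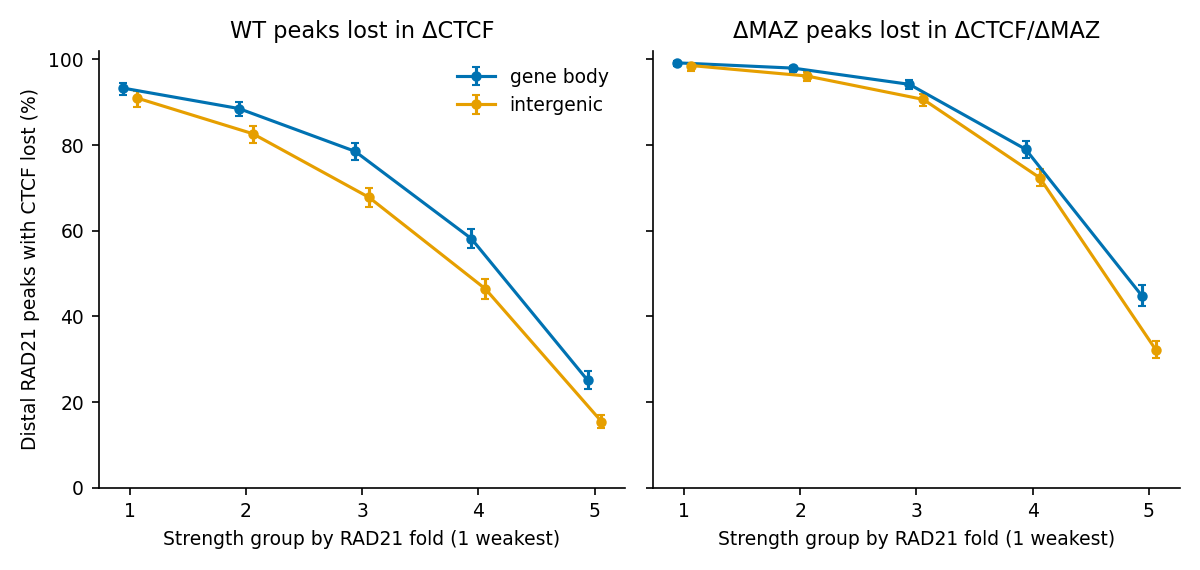
Share of distal RAD21 peaks with CTCF that were lost (%, with Wilson 95% intervals), in gene bodies and between genes, by 5 equal strength groups of RAD21 fold enrichment, for WT peaks lost in ΔCTCF (left) and ΔMAZ peaks lost in ΔCTCF/ΔMAZ (right). In the strongest WT group 25.1% were lost in gene bodies and 15.5% between genes, and the gene body points lie higher in all 5 groups of both panels.

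Among sites in the body of a single protein-coding gene, the share lost moved with MAZ at the promoter of that gene. Where the gene had a MAZ summit of WT within 1 kb of a transcript start, 76.1% of 2004 distal sites in it were lost (74.2 to 77.9), against 65.7% of 4903 in genes without (64.4 to 67.0). The difference was 7.18 points (5.17 to 9.19) when weighted over strength groups, and 6.92 points (4.91 to 8.93) when also weighted over 4 groups of gene length. A RAD21 summit of ΔCTCF/ΔMAZ at the promoter gave a difference of 2.14 points on the strength-weighted scale, with an interval that held 0 (-1.14 to 5.41). The orientation of the motif against the gene gave none beyond its interval either: 65.4% were lost with the motif on the strand of the gene and 66.0% with it on the other, a weighted difference of -1.05 points (-3.30 to 1.21). Sites in the same gene share its promoter, so these intervals too are narrower than they should be.

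Lost sites were the weaker part of the distal CTCF sites. Their median RAD21 fold enrichment in WT was 8.71 (middle 50%, 6.52 to 12.5), against 18.05 (12.2 to 25.6) at retained sites, and their median pileup was 22 reads against 46. Gene body and intergenic lost sites were alike, at medians of 8.69 and 8.82. CTCF itself was weaker too, with a median fold enrichment of 13.1 at lost sites and 21.6 at retained sites. The ranges overlapped widely, and 727 lost sites were in the strongest group of RAD21 peaks, above 18.6-fold. Of the distal RAD21 peaks with CTCF, 92.2% were lost in the weakest group by CTCF fold enrichment and 26.6% in the strongest. These values are from the lists the rule used and describe the sites.

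**Figure D3:**
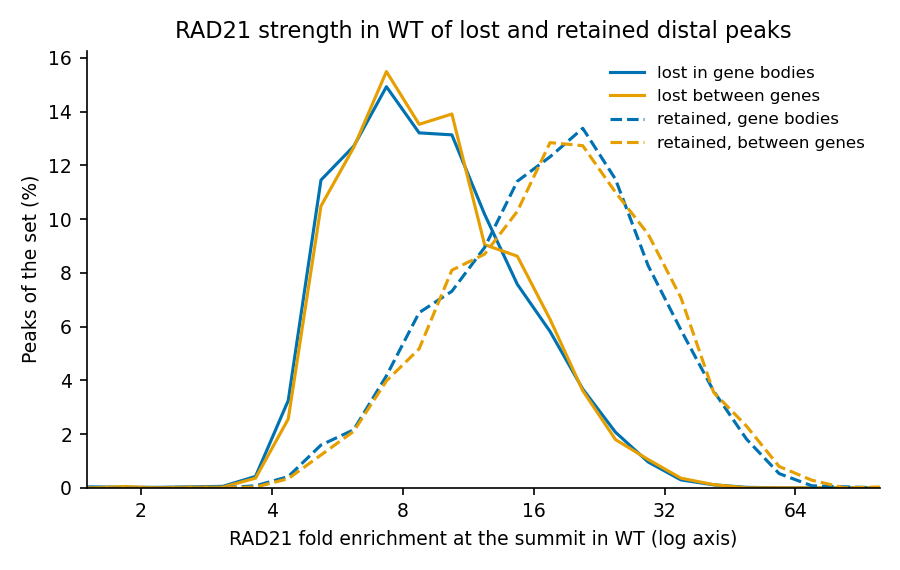
Distribution of the RAD21 fold enrichment at the summit in WT (log axis) for lost and retained distal sites with CTCF, as a share of each set (%), split by gene body and intergenic. Lost sites have medians of 8.69 in gene bodies and 8.82 between genes, and the retained sites lie to the right with medians of 17.7 and 18.3.

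In the RAD21 and CTCF lists the rule did not use, most lost sites were called without auxin and few with it. RAD21 of ΔMAZ was called at 8005 of 9588 lost sites, 83.5% (82.7 to 84.2), and the background over all RAD21 peaks of WT was 83.5% as well. When the rule was applied to the 6400 strongest peaks of each RAD21 list, it gave another set of 2573 sites, of which 1696 are lost sites as defined above and 877 overlapped a weaker RAD21 peak of ΔCTCF. In that set the shares were no longer equal, at 66.3% (64.5 to 68.1) against 81.3% of all RAD21 peaks of WT kept (80.4 to 82.3). At retained sites the share was 99.5%, so that lost minus retained sites differed by -16.04 points (-16.8 to -15.3), and by -6.57 points at like strength (-7.08 to -6.07). The share at lost sites climbed with strength in WT, from 58.0% in the weakest group through 77.4%, 92.4% and 99.3% to 100% in the strongest. Over all RAD21 peaks of WT it climbed likewise, from 48.4% through 76.0%, 93.3% and 99.6% to 100%. CTCF of ΔMAZ was called at 8746 lost sites, 91.2% (90.6 to 91.8), beside a background of 84.5% that takes in peaks without CTCF in WT. Retained sites, which all had CTCF in WT as well, had it at 99.6%. Lost minus retained sites differed by -8.41 points (-9.004 to -7.83), or -5.19 points at like RAD21 strength (-5.73 to -4.65). That weighting did not match the sets for CTCF strength. By CTCF fold enrichment in WT, the share at lost sites ran from 76.4% in the weakest of 5 groups to 100% in the strongest. Of the lost sites, 7541 (78.7%) had both RAD21 and CTCF in ΔMAZ, 1205 had CTCF alone, 464 RAD21 alone and 378 neither. Both were called at 76.7% of all RAD21 peaks of WT and at 99.3% of retained sites. RAD21 was called at 86.2% of the lost sites with CTCF in ΔMAZ and at 55.1% of those without, beside 90.8% and 43.7% over all RAD21 peaks of WT.

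With auxin, few lost sites had either protein called. RAD21 of ΔCTCF/ΔMAZ was called at 180 lost sites, 1.88% (1.62 to 2.17), beside a background of 21.7% over all RAD21 peaks of WT and 54.8% at retained sites. In the set of 2573 sites from the shortened lists, whose members differ as said, the share was 9.72% (8.63 to 10.9), beside 47.1% of all 6400 RAD21 peaks of WT kept and 75.9% of the retained sites of those lists. CTCF of ΔCTCF was called at 97 lost sites, 1.01% (0.830 to 1.23), beside a background of 10.7%, and at 29.1% of retained sites. CTCF of ΔCTCF/ΔMAZ was called at 96, 1.00% (0.821 to 1.22), beside a background of 11.8%, and at 31.9% of retained sites. At like RAD21 strength lost minus retained sites differed by -43.6 points for RAD21 of ΔCTCF/ΔMAZ (-45.0 to -42.1), by -24.6 points for CTCF of ΔCTCF (-25.9 to -23.4) and by -27.4 points for CTCF of ΔCTCF/ΔMAZ (-28.7 to -26.1). CTCF was called in both auxin lists at 22 lost sites (0.229%), a joint call for which no background is given here. By the rule none had RAD21 of ΔCTCF, where the background was 38.9%, and all had CTCF of WT, where it was 86.0%.

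MAZ was rarely called at lost sites. A MAZ peak of WT overlapped 20 of them, 0.209% (0.135 to 0.322), beside a background of 2.59%, and 13 met a peak of the MAZ list after auxin, 0.136% (0.0793 to 0.232), beside 2.19%. The MAZ lists of ΔMAZ and ΔCTCF/ΔMAZ overlapped 5 and 7 lost sites, beside backgrounds of 0.0884% and 0.0884%, and those sites had a median RAD21 fold enrichment in WT of 2.25 in either case. In all, 9557 lost sites (99.7%) had no peak in any MAZ list. Retained sites had MAZ of WT at 1.12%, a difference of -0.912 points for lost minus retained (-1.22 to -0.652), and the 861 lost RAD21 peaks with CTCF at promoters had it at 6.85%.

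**Figure D4:**
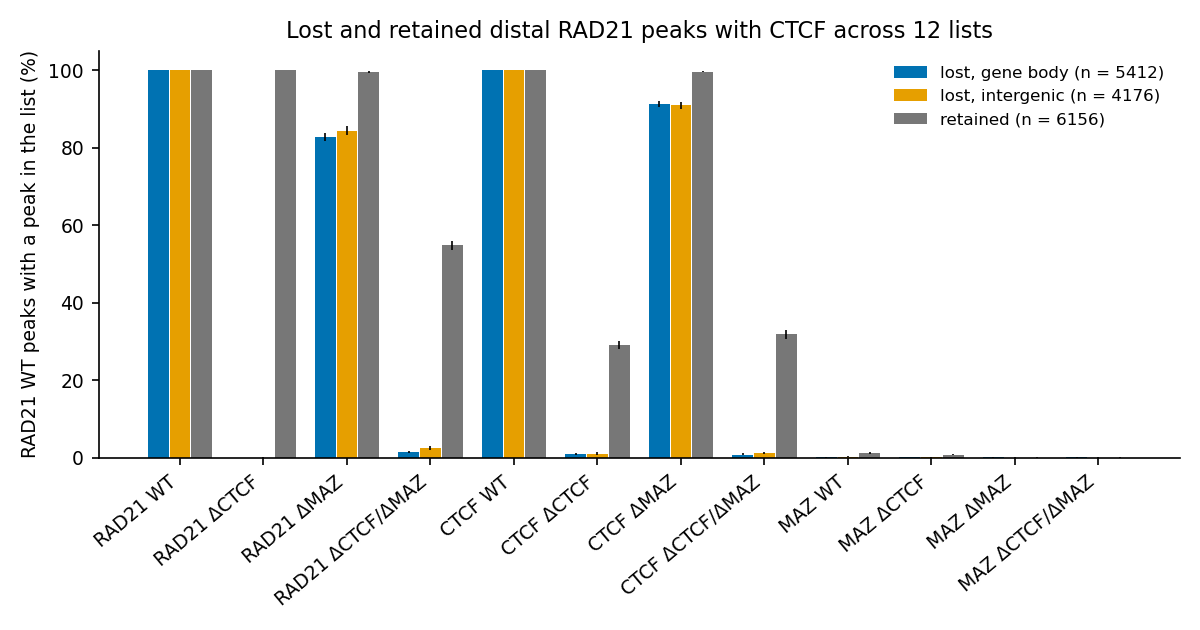
Share of lost sites in gene bodies, lost sites between genes and retained sites (%, with Wilson 95% intervals) that overlapped a peak of each of the 12 lists; RAD21 WT, RAD21 ΔCTCF and CTCF WT are fixed by the rule. Lost sites reach 82.8% and 84.4% in RAD21 ΔMAZ and 1.42% and 2.47% in RAD21 ΔCTCF/ΔMAZ, where retained sites reach 54.8%.

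Gene body and intergenic lost sites differed in RAD21 of ΔCTCF/ΔMAZ, and in the other lists given here the intervals held 0 at like strength. RAD21 of ΔMAZ was called at 82.8% in gene bodies and 84.4% between genes, a difference of -1.63 points (-3.12 to -0.133) that became -1.23 points with an interval that held 0 (-2.59 to 0.130) at like strength. RAD21 of ΔCTCF/ΔMAZ was called at 77 gene body sites (1.42%) and 103 intergenic sites (2.47%), a difference of -1.04 points at like strength (-1.60 to -0.475). The same direction was seen at retained sites, with 50.6% in gene bodies (48.7 to 52.5) and 57.96% between genes (56.3 to 59.6). For CTCF of ΔMAZ, ΔCTCF and ΔCTCF/ΔMAZ the weighted intervals held 0 (-0.642 to 1.62, -0.446 to 0.362 and -0.809 to 0.0138 points). MAZ of WT was called at 7 gene body sites (0.129%) and 13 intergenic sites (0.311%), with a weighted interval of -0.380 to 0.00984 points.

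In the strongest of the 5 strength groups, RAD21 of ΔMAZ was called at 100% of all RAD21 peaks of WT. CTCF of ΔMAZ was called at 98.3% of the lost and 99.9% of the retained sites in that group. The strongest lost sites, too, all had RAD21 and CTCF in the knockout. In gene bodies they were a coding exon of BC034090 at chr1:155218140-155218542, with a RAD21 fold enrichment of 45.5 in WT and 43.6 in ΔMAZ, and introns of Ppp2r5c, which encodes a regulatory subunit of protein phosphatase 2A, at chr12:110454207-110454708 with 45.2 and 38.2, and of Bphl, which encodes a hydrolase, at chr13:34046409-34046831 with 43.4 and 36.8. The introns of Nek10, a kinase gene, and Gm14546 shown above followed with 41.3 and 27.0, and 40.1 and 33.2. Their CTCF fold enrichment in WT ran from 7.47 at Gm14546 to 25.7 at Bphl, and in ΔMAZ from 5.17 to 30.8 at the same 2 sites. None of the 5 had a peak in a MAZ list or in any list with auxin. The sites were chosen for a high value in WT, so a lower value in ΔMAZ is no sign of a change.

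Between genes, the strongest lost sites were 9722 to 30445 bases from a transcript start, and 3 of 5 kept some RAD21 in ΔCTCF/ΔMAZ. Over the whole strongest group, RAD21 of ΔCTCF/ΔMAZ was called at 4.95% of 727 lost sites and at 69.9% of retained sites. The site nearest to Slc35f6 at chr5:30638025-30638423 had a RAD21 fold enrichment of 43.5 in WT, 45.9 in ΔMAZ and 5.49 in ΔCTCF/ΔMAZ. That nearest to Gm8637 at chr8:95951777-95952158 had 39.99, 31.7 and 5.95, and that nearest to Gm27019 at chr6:31075697-31076159 had 39.6, 35.0 and 6.15. The sites nearest to Hif1an, which encodes an inhibitor of the hypoxia-inducible factor HIF1A, and to Pdcd1, which encodes the immune receptor PD-1, had 41.2 and 38.6 in WT, 29.98 and 33.995 in ΔMAZ, and no RAD21 peak in either auxin list. All 5 had CTCF in ΔMAZ and none had it in an auxin list.

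The few exceptions with residual CTCF had stronger CTCF in WT than most lost sites. The 97 lost sites with CTCF in ΔCTCF had a median RAD21 fold enrichment of 7.94 in WT and a median CTCF fold enrichment of 22.6 in WT. Among those with CTCF in both auxin lists, the highest CTCF fold enrichment in ΔCTCF was in an intron of Ntng2, a gene of a netrin-like axon guidance protein, at chr2:29194563-29194820. CTCF had a fold enrichment there of 28.9 in WT and 12.4 after auxin, and in the knockout of 48.5 without auxin and 5.85 with it. RAD21 had 4.81 in WT and 5.36 in the knockout, and MAZ had 3.63 in WT. At the site between genes nearest to Gm13172 CTCF had 20.6, 10.4, 25.6 and 6.28 in the same order. In the coding exon of Gdf15, a stress-induced member of the TGF-β family, CTCF had 67.8, 10.1, 73.7 and 13.0, and RAD21 had 5.90 in WT and 13.1 in ΔMAZ.

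The 180 lost sites with RAD21 in ΔCTCF/ΔMAZ had a higher median RAD21 fold enrichment in WT, 11.7, and fewer of them lay in gene bodies (42.8%, interval 35.8 to 50.1, against 56.4% of all lost sites). Of 3373 retained sites with RAD21 in ΔCTCF/ΔMAZ, 1672 had CTCF of ΔCTCF/ΔMAZ as well, and of the 180 lost sites 22 had it (12.2%). Their highest values in that list were at an exon of a noncoding transcript of Nemp1, which encodes a nuclear envelope protein, with a RAD21 fold enrichment of 12.6 in WT, 20.2 in ΔMAZ and 8.78 in ΔCTCF/ΔMAZ, at the site nearest to Gm12281 with 18.3, 27.8 and 8.24, and at the coding exon of 1500009C09Rik with 7.39, 14.3 and 8.24. All 3 had a higher value in ΔMAZ than in WT, with no replicate to set beside it. The strongest MAZ peaks of WT at lost sites were between genes nearest to Ptma, Gm45738 and Gm15904, with MAZ fold enrichments of 9.23, 7.25 and 6.14, and the first alone also had MAZ in ΔCTCF, at 5.27.

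Lost sites lay more often in repeats than retained sites. The summit was in repeat-masked sequence, lower case in the reference, at 2124 lost sites (22.2%, interval 21.3 to 23.0) and at 12.8% of retained sites (12.04 to 13.7), a difference of 3.802 points at like strength (2.40 to 5.21). Of repeat-masked distal sites 72.9% were lost, against 58.2% of the others, which is 4.36 points at like strength (2.75 to 5.97), and the ΔMAZ lists gave 2.85 points (1.53 to 4.17). Gene body and intergenic lost sites were alike, at 22.5% and 21.8%. RAD21 of ΔMAZ was called at 76.6% of lost sites in repeats and at 85.4% of those outside, with median RAD21 fold enrichments in WT of 7.83 and 9.13. In rodents the SINE B2 family has carried CTCF motifs to many places. The 20-base string given next, with its 12 core bases in capitals, was the most frequent around the core in CTCF peaks of WT without RAD21, at 96 of 3607 strings.

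Most frequent string: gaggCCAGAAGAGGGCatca

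A string with at least 16 of these 20 bases stood at 1421 lost sites (14.8%, interval 14.1 to 15.5) and at 9.54% of retained sites (8.83 to 10.3), 2.48 points apart at like strength (1.23 to 3.73). At 999 of the 1421 (70.3%) the summit was in repeat-masked sequence. Which repeat family they belong to was not tested. These repeat measures were chosen after values of these lists had been seen.

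Lost sites were spread over 3633 of 21951 protein-coding genes (16.6%), counting every gene whose span held a summit, and the longer genes held them more often. The share of genes with a lost site was 2.81% up to 10 kb, 12.5% over 10 to 30 kb, 26.001% over 30 to 100 kb, 46.7% over 100 to 300 kb and 63.3% beyond. The highest numbers were in Gm20388 with 48 and Fgfr2 with 15, whose annotated spans of 4435 kb and 2961 kb take in 71 and 29 other protein-coding genes. Next came Nav2, a neuron navigator gene, with 10, Pitpnc1, a phosphatidylinositol transfer protein gene, with 9, and Gse1 with 9. Gse1 lies within Gm20388, so its sites are counted in both. Agap1, an Arf GTPase-activating protein gene, Rora, a nuclear receptor gene, and Pde4d, a cAMP phosphodiesterase gene, had 8 each, and Osbpl10, an oxysterol-binding protein relative, and Mtus2, a microtubule-associated protein gene, had 7 each. Beside the 83.5% of all lost sites, RAD21 of ΔMAZ was called at 9 of 10 in Nav2, 7 of 9 in Pitpnc1, 9 of 9 in Gse1, 6 of 8 in each of Agap1, Rora and Pde4d, 6 of 7 in Osbpl10 and 4 of 7 in Mtus2. Retained sites numbered 23 in Gm20388, 11 in Fgfr2, 4 in Pde4d, 3 in each of Gse1 and Mtus2, 2 in Nav2, 1 in Pitpnc1 and 0 in Agap1, Rora and Osbpl10, in genes that were chosen for many lost sites.

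Of 20 pluripotency regulators 2 held a lost site (10%), beside the 16.6% of all protein-coding genes: Nr5a2, a nuclear receptor gene, had 2 and Esrrb, an orphan nuclear receptor gene of the naive pluripotency network, had 1. The median length of these genes was 15.9 kb, beside 17.4 kb over all protein-coding genes. Of 21 genes of signalling receptors and ligands 8 held a lost site (38.1%), with a median length in the list of 81.8 kb. They held 23 lost sites in all, of which 15 were in the long span of Fgfr2, with 2 in Bmpr1b and 1 each in Acvr2a, Acvr1, Igf1r, Fgfr1, Egfr and Wnt5a. A list of long genes, mostly of neuronal adhesion proteins and channels, with a median length of 1502 kb, held them in 14 of 20 (70%). These included Rbfox1, a splicing regulator gene, with 7, Cdh13, a cadherin gene, with 5, Nrxn3, a neurexin gene, with 4, and Cntnap2, Cacna1c and Dlg2 with 3 each. Of all distal RAD21 sites with CTCF, 3 of 4 (75%) were lost in the pluripotency regulators, 65.7% were lost in the signalling genes and 60.9% in the long genes, beside 68.9% over all protein-coding genes.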

How the data were processed

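The authors mapped reads to mm10 with Bowtie 2, filtered them and removed duplicates with SAMtools, and called narrow peaks for each library with MACS default settings. Whether an input control was used is not given in the sources used here, and spike-in or read-total scaling is described for heat maps, density plots and tracks, not for the peak lists. The series has 20 samples. The 12 samples with a list were used, and the other 8 were not analysed here. The score the authors deposited repeats the −log10 q-value, multiplied by 10 and cut to a whole number, and was not used. The fold enrichment the authors deposited is a ratio of pileup to local background and was used for strength. From the authors' columns, −log10 p served to solve for depth and −log10 q for an alternative threshold. The offset column gives the summit.

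Peaks were shared when they overlapped by at least 1 bp. Shares carry Wilson intervals and differences Newcombe intervals, or Mantel-Haenszel differences with Sato's variance over 5 strength groups (Python 3.11.15, scipy 1.17.1, statsmodels 0.14.6). With 1 list per group no p-value was computed. Whole-number pileups solved from fold enrichment and −log10 p matched for 100% of peaks, and the lowest background over the smallest peak width gave relative depth. The CTCF matrix of 20 bp was sought in 3548 CTCF peaks of WT that overlapped no RAD21 peak of WT, outside repeats. It started from 877 strings with the letters CCA, any 2 bases, AG, any 2 bases and GGC. The final matrix was built from 1426 matches, and its limit was passed by 1% of windows 1 kb beside. Both strands were searched. Genes come from GENCODE vM21 basic, and sequence comes from RefSeq's GRCm38.p6, the assembly of mm10. A summit in several genes counted once as a gene body site. Overlaps, matrix, pileups and weighted differences were tested on simulated data or against bedtools 2.31.1.

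The sites and gene lists were chosen with earlier results of these data known. Some measures were added after values had been seen: the share lost in gene bodies against between genes, and the repeat measures. The split by MAZ at the promoter of the gene and the comparison within the knockout lists were added then too. Named sites, none on chromosome 18, are the 5 strongest in gene bodies and the 5 strongest between genes by RAD21 WT fold enrichment, and the 3 highest in CTCF ΔCTCF (with CTCF in both auxin lists), in RAD21 ΔCTCF/ΔMAZ and in MAZ WT. Named genes are the 10 protein-coding genes with most sites and the members of 3 lists that held a site. A further list is not reported here.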

Additional observations from a re-analysis of the deposited data

How the results depend on the processing

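No paired analysis was possible because every antibody and group came with a single list. Of 58 alternative values of 12 results, 41 stayed within the interval of the reported value (within 1.5 times for the number of sites). None of the differences among them changed sign, and the counts and shares, which were most of the values, could not. Applying the rule to the 6400 strongest peaks of each RAD21 list gave another set of 2573 sites, of which 1696 are among the lost sites, with RAD21 called at 66.3% in ΔMAZ and 9.72% after auxin in the knockout, where 81.3% and 47.1% of all RAD21 peaks of WT kept were called. CTCF of ΔMAZ was called at 88.7% with a reciprocal overlap of 50%. When every list was held to a −log10 q of 5 or more it was 88.4%, and RAD21 of ΔCTCF/ΔMAZ was 1.60%. Counting gaps of up to 500 bp as overlap put MAZ of WT at 0.400%. Protein-coding genes alone held 51.0% of lost sites. The motif share was 67.9% in 200 bp, 62.4% around the CTCF summit and 41.6% for the core letters. Lost minus retained sites, for RAD21 called in ΔMAZ, differed by -6.57 points over groups of fold enrichment and -6.32 over groups of −log10 q. Gene body minus intergenic share lost was chosen, with its alternatives, after the data were seen. Unweighted, it was 13.0 points, and 10.3 in the ΔMAZ lists. Over groups of fold enrichment, of −log10 q and of RAD21 with CTCF fold enrichment it was 8.70, 8.40 and 9.39 points. For these changes the cause was not tested, beyond what each alternative does by construction. A site not called may hold signal below the limit of its library.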
